A study of Mus musculus with 12 samples.

Results

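The response of the mouse pituitary to 1 week of AA14, a small-molecule ligand of the receptor GPR101, was described across all expressed genes in mice that received a control virus. Of the 12 pituitary libraries of the study, 6 belong to this comparison, chosen by their labels: 3 given AA14 (ctrl_AA14 1 to 3) and 3 given vehicle (ctrl_vehicle 1 to 3). All 6 came from C57BL/6 mice labelled Cga-ctrlAAVGpr101fl/fl, so the animals of both arms carried a floxed Gpr101 gene and the control virus, and they differed in the label by the ligand alone. The other 6 libraries, 3 with vehicle and 3 with AA14, were labelled Cga-creAAVGpr101fl/fl, for mice whose virus carried cre recombinase. They served as a check of what varied in these mice, and they also entered the scaling of counts and the fit over 12 libraries. The labels name Cga in the viral construct without describing what it does there, and they give neither age nor sex. Pituitaries were dispersed and the protocols mention flow cytometry, but which cells were collected is not stated, nor whether each library came from a separate mouse, so the p-values measure only the spread between these libraries, which may be technical. In such bulk samples fewer cells of a type and less RNA per cell cannot be told apart.

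GPR101 is an orphan G protein-coupled receptor that signals through the stimulatory G protein Gs. Gs activates adenylyl cyclase, cyclic AMP then releases the catalytic subunits of protein kinase A, and the kinase phosphorylates CREB, which binds cyclic AMP response elements in promoters. In somatotrophs, the growth hormone cells of the anterior lobe, growth hormone-releasing hormone uses this route through its receptor GHRHR, and the transcription factor POU1F1 drives the growth hormone gene. Somatostatin acts in the opposite direction through receptors coupled to Gi, and extra copies of GPR101 are known as a cause of gigantism.

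The 6 libraries held 63726691 to 72556584 counts. The 7 hormone genes of the anterior and intermediate lobes (Gh, Prl, Pomc, Tshb, Lhb, Fshb and Cga) took 17.6% to 30.8% of the counts of a library, so the hormones that define the labelled tissue were present. The arms differed in the number of genes with at least 1 count, at 25336, 25521 and 25364 in ctrl_vehicle and 27001, 26740 and 26929 in ctrl_AA14. Levels below are counts scaled per library (CPM, the usual unit per 1e6 counts), each over the library size scaled by the trimmed mean of M-values (TMM), and fold changes are AA14 over vehicle on the log2 scale with a standard error (SE).

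Gpr101 itself was scarce. It was at 1.65, 1.22 and 16.1 CPM in ctrl_vehicle and at 3.30, 2.20 and 6.60 CPM in ctrl_AA14, and the groups overlapped. Its log2 fold change was -0.65 (SE 1.00, edgeR adjusted p = 0.697 in the 6 libraries). Without ctrl_vehicle 3 the sign turned, to 1.49 over the remaining libraries of the study. The highest value stood in ctrl_vehicle 3, where the posterior lobe transcripts Avp and Oxt, made in hypothalamic axons, summed to 398 CPM, against 41.0 and 26.7 CPM in the other ctrl_vehicle libraries and 7.18, 7.71 and 9.92 CPM in ctrl_AA14. The sum of 12 oligodendrocyte markers was also uneven, at 144, 125 and 2653 CPM in ctrl_vehicle and 813, 81.6 and 87.1 CPM in ctrl_AA14. The part of these admixtures in the results was not tested, and counts without ctrl_vehicle 3 and ctrl_AA14 1 are given where they matter.

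The number of genes that passed differed with the libraries in the fit and with the test used. With edgeR over all 12 libraries, 1 of 22630 genes passed an adjusted p of 0.05, or 0.00442%, and 5386 had an unadjusted p under 0.05 (1818 higher and 3568 lower in AA14). With edgeR over the 6 control-virus libraries alone, 2266 of 21281 genes passed, or 10.6%, of which 646 (3.04%) were higher and 1620 (7.61%) lower after AA14. DESeq2 over 12 libraries called 2251 genes and limma-voom with quality weights called 3409. Of the genes tested over 12 libraries, 3976 (17.6%) had all 3 AA14 values above all 3 vehicle values and 4559 (20.1%) had them all below. The common biological coefficient of variation was 0.445 over 12 libraries and 0.392 over 6. Leaving out a library changed the 6-library count greatly. It became 3, 2 and 2 without ctrl_AA14 1, 2 or 3, then 8 without ctrl_vehicle 1, 1319 without ctrl_vehicle 2 and 2611 without ctrl_vehicle 3. With ctrl_vehicle 3 and ctrl_AA14 1 both left out, 1278 genes passed, and 1062 of them were among the 2266. In what follows, rose and fell are used of genes that passed in the 6-library fit, and adjusted p-values are from that fit unless 12 libraries are named. Over 12 libraries the same named genes had adjusted p-values of 0.141 or more, except Krcc1 and Gm47308, which are given below. Each list count below is to be read beside the shares over all genes tested. Of these 3.04% rose, 7.61% fell, 17.6% lay wholly above and 20.1% wholly below.

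**Figure D1:**
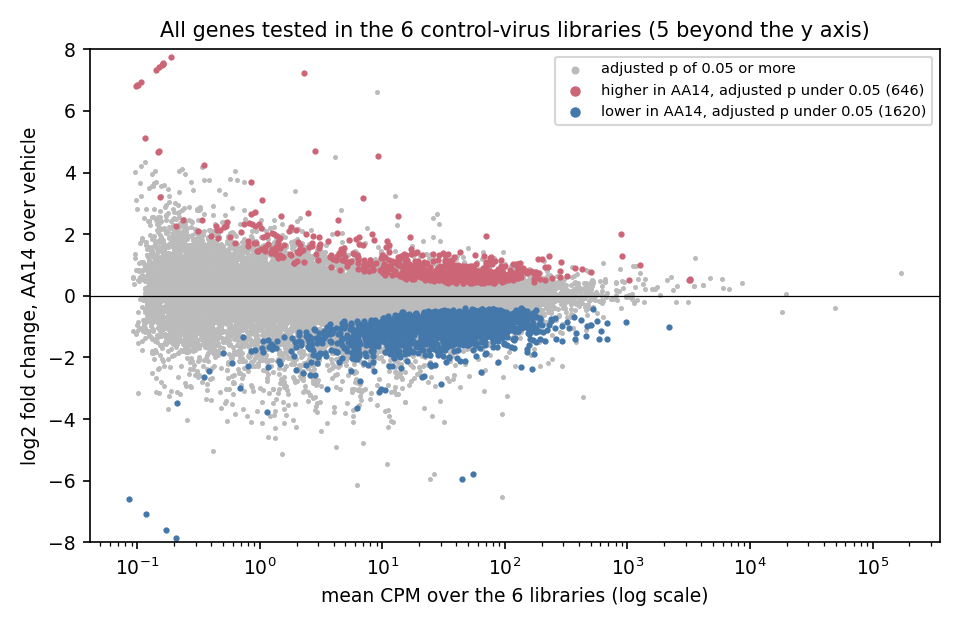
Log2 fold change of AA14 over vehicle (y axis) against mean CPM over the 6 control-virus libraries (x axis, log scale), 1 point per gene tested. The 1620 genes that fell (blue) outnumber the 646 that rose (red).

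In the 16455 genes whose mean reached 1 CPM, a log2 fold change of 2 or more was found for 45 genes and of -2 or less for 362, and at a size of 1 these counts were 538 and 1989. Over all 22630 genes, scarce ones included, they were 490 and 641 at a size of 2 and 1926 and 2836 at a size of 1. The median over all genes tested was -0.02, or 0.11 with upper-quartile scaling, under which 865 genes passed as higher and 1205 as lower in place of 646 and 1620, and 2710 were higher and 2739 lower at an unadjusted p under 0.05 in place of 1818 and 3568.

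The direction of a gene's change went with the base composition of its transcript. In 5 bins of equal size by GC content, the median log2 fold change was 0.22 in the lowest bin (22.1% to 43.8% GC) and then 0.05, -0.05, -0.24 and -0.51 in the highest (55.5% to 78.3% GC). The share of genes that fell was 1.73% in the lowest bin and 21.7% in the highest, and the share that rose was 5.44% and 1.98%. Across 16444 genes, which are not independent replicates, Spearman's rho of the fold change was -0.38 with GC content and -0.08 with exon length. The same trend can be read in each library: rho between GC content and the library's deviation from the mean was 0.09, 0.09 and 0.29 in ctrl_vehicle and -0.23, -0.23 and -0.34 in ctrl_AA14. It was -0.17, 0.21 and 0.21 in cre_vehicle 1 to 3 and 0.26, -0.29 and 0.00 in cre_AA14 1 to 3. With each library's GC slope as a term of the model, 5 genes passed over 6 libraries and 605 had an unadjusted p under 0.05 over 12. Below, list medians and values under this term are from the 12-library fit unless 6 libraries are named. Other fold changes of single genes are from the 6-library fit unless 12 libraries are named, so the 2 kinds of value differ in fit as well. Since all 3 AA14 libraries have a negative slope and all 3 vehicle libraries a positive slope, this term also takes up the treatment, and AA14 and base composition cannot be told apart in these 6 libraries.

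**Figure D2:**
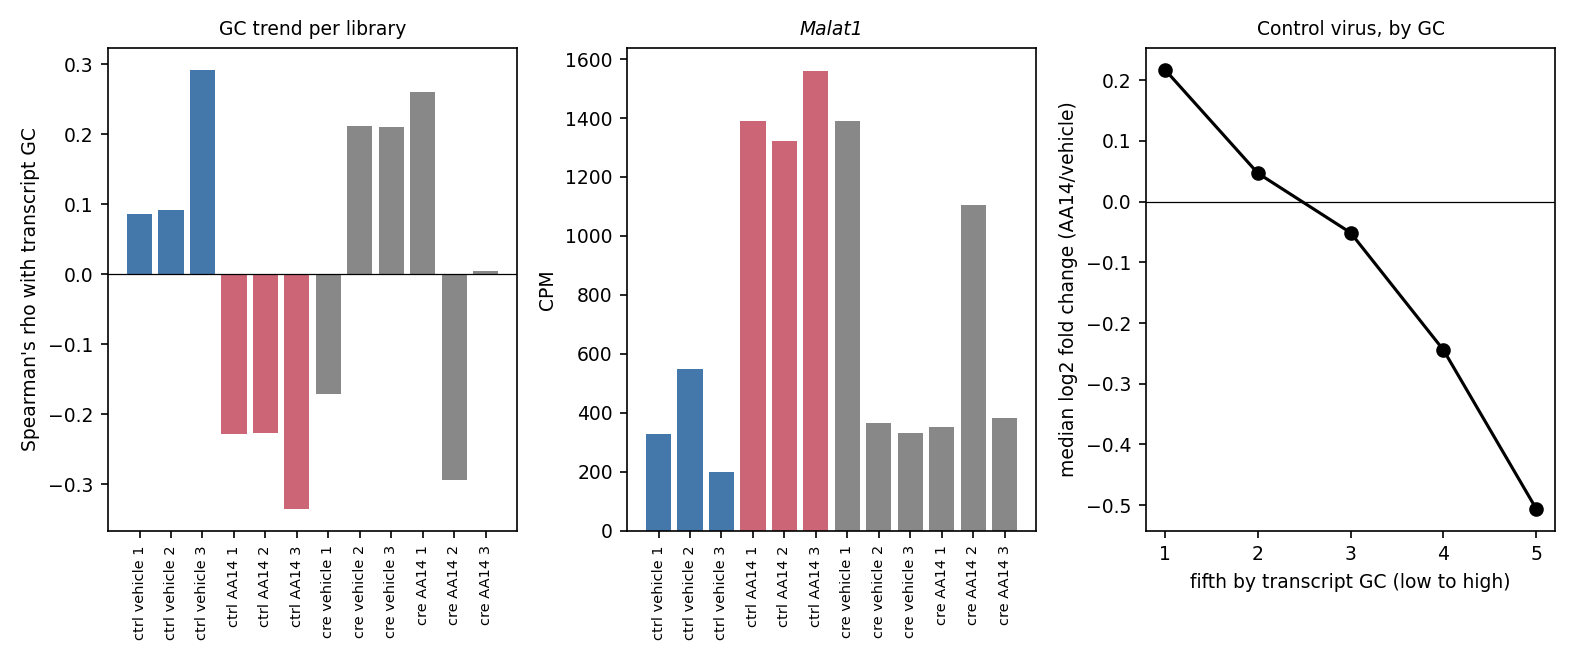
Left, Spearman's rho between transcript GC content and each library's deviation from the mean log2 level, and centre, Malat1 in CPM, both for 12 libraries (blue, ctrl_vehicle; red, ctrl_AA14; grey, cre virus). Right, median log2 fold change of AA14 over vehicle in the 6 control-virus libraries in 5 equal bins of transcript GC content, from 0.22 to -0.51. The bars of cre_vehicle 1 and cre_AA14 2 point the same way as those of ctrl_AA14.

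The cre-virus libraries show where the same genes stood without the AA14 and vehicle labels running in parallel. For each of 2205 genes that passed in the 6-library fit and averaged 1 CPM or more, a library was placed on a scale where 0 is the ctrl_vehicle mean and 1 the ctrl_AA14 mean. The median position was 0.85, -0.10 and -0.03 in cre_vehicle 1 to 3 and 0.01, 0.96 and 0.14 in cre_AA14 1 to 3. Thus 1 vehicle library and 1 AA14 library with cre virus lay near the AA14 end, and the other 4 lay near the vehicle end. The control libraries, whose values define the scale, lay between -0.15 and 0.11 and between 0.93 and 1.13. In the cre-virus mice, AA14 against vehicle called 0 genes over 12 libraries and 519 had an unadjusted p under 0.05. In these mice cre_vehicle 1 and cre_AA14 2 had Malat1 levels of 1391 and 1105 CPM, against 331 to 382 CPM in the other 4. What set these 2 libraries apart is not given by the labels.

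Gm47308, a predicted microRNA gene of 107 bases, was the gene that passed over 12 libraries. It lies on chromosome 9 (GRCm38, chr9:64726624-64726730, minus strand) and runs over a coding exon of Rab11a, which encodes a small GTPase of recycling endosomes, so reads of the 2 genes may be shared. The part of it that is coding in every Rab11a model with coding sequence over it is chr9:64726624-64726696 on the minus strand. In some models the coding part may be longer. The shared part is shown because both annotations claim it:
Gm47308: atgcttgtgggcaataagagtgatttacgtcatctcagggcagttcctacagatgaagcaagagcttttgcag
It had 2, 2 and 2 counts in ctrl_vehicle and 305, 355 and 298 in ctrl_AA14. The cre-virus libraries had 205, 364 and 392 counts with vehicle and 432, 241 and 330 with AA14. The value that stands apart is thus the low one of ctrl_vehicle, and ctrl_AA14 lay within the range of the other groups in CPM. The log2 fold change was 7.23 (SE 0.34, edgeR adjusted p = 4.53e-06 over 12 libraries), a 160-fold ratio of means with 6 vehicle counts behind it. The difference between this effect and that in cre-virus mice was 7.04 on the log2 scale (adjusted p = 4.36e-05) and was the sole interaction of 22630 that passed (0.00442%), with 1591 at an unadjusted p under 0.05. DESeq2 passed 26 interactions and limma-voom 0. Rab11a as a whole moved the other way. It was at 118, 108 and 108 CPM in ctrl_vehicle and 78.0, 84.3 and 76.1 CPM in ctrl_AA14 (log2 fold change -0.48, SE 0.10, adjusted p = 0.0345).

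Among the hormones, 5 of 7 had all 3 AA14 values above all vehicle values, and none passed the test. Gh, growth hormone, was at 90441, 176350 and 116910 CPM in ctrl_vehicle and at 188710, 212940 and 241860 CPM in ctrl_AA14, a 1.68-fold ratio of means (log2 fold change 0.75, SE 0.28, adjusted p = 0.125). With cre virus Gh was at 211640, 110910 and 164390 CPM after vehicle and 99590, 218020 and 203890 CPM after AA14. Tshb, the beta subunit of thyrotropin, was at 277, 305 and 146 CPM and at 464, 539 and 386 CPM (0.94, SE 0.28, adjusted p = 0.0783). The gonadotropin subunits Lhb, Fshb and Cga had log2 fold changes of 0.48, 0.55 and 0.54. Prolactin (Prl, -0.39) and the corticotropin precursor Pomc (-0.51) overlapped between the groups. With the GC slope term over 12 libraries, Gh was at 0.03, Cga at -0.02 and Fshb at -0.15, so the values of these genes were near or below 0 in that fit. Over 6 libraries with that term, Gh was at 0.46, Cga at -0.10 and Fshb at -0.22.

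Of 8 somatotroph marker genes 3 rose, 4 lay wholly above and 2 wholly below, with a list median of 0.45 against -0.02 for all genes tested. Ghrhr, which encodes the receptor of that releasing hormone, was at 125, 160 and 84.0 CPM in ctrl_vehicle and at 264, 272 and 309 CPM in ctrl_AA14. It rose 2.29-fold (log2 1.21, SE 0.23, adjusted p = 0.0276). The lowest AA14 library was well above the highest vehicle library. With cre virus it was at 316, 90.6 and 135 CPM after vehicle and 147, 242 and 128 CPM after AA14. Pou1f1, the pituitary transcription factor named above, was at 139, 162 and 123 CPM and at 225, 235 and 250 CPM (0.75, SE 0.13, adjusted p = 0.0234). Rxrg, a retinoid X receptor, rose from 42.3, 43.7 and 39.8 CPM to 54.1, 62.8 and 68.1 CPM (0.56, SE 0.12, adjusted p = 0.0334). The ghrelin receptor Ghsr (-1.08, adjusted p = 0.0673) and the transcription factor Foxo1 (-0.45, adjusted p = 0.0538) lay below without passing. Under the GC slope term the values of Ghrhr, Pou1f1 and Rxrg were 0.22, 0.27 and 0.22 over 12 libraries. They were 0.41, 0.43 and 0.35 over 6.

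**Figure D3:**
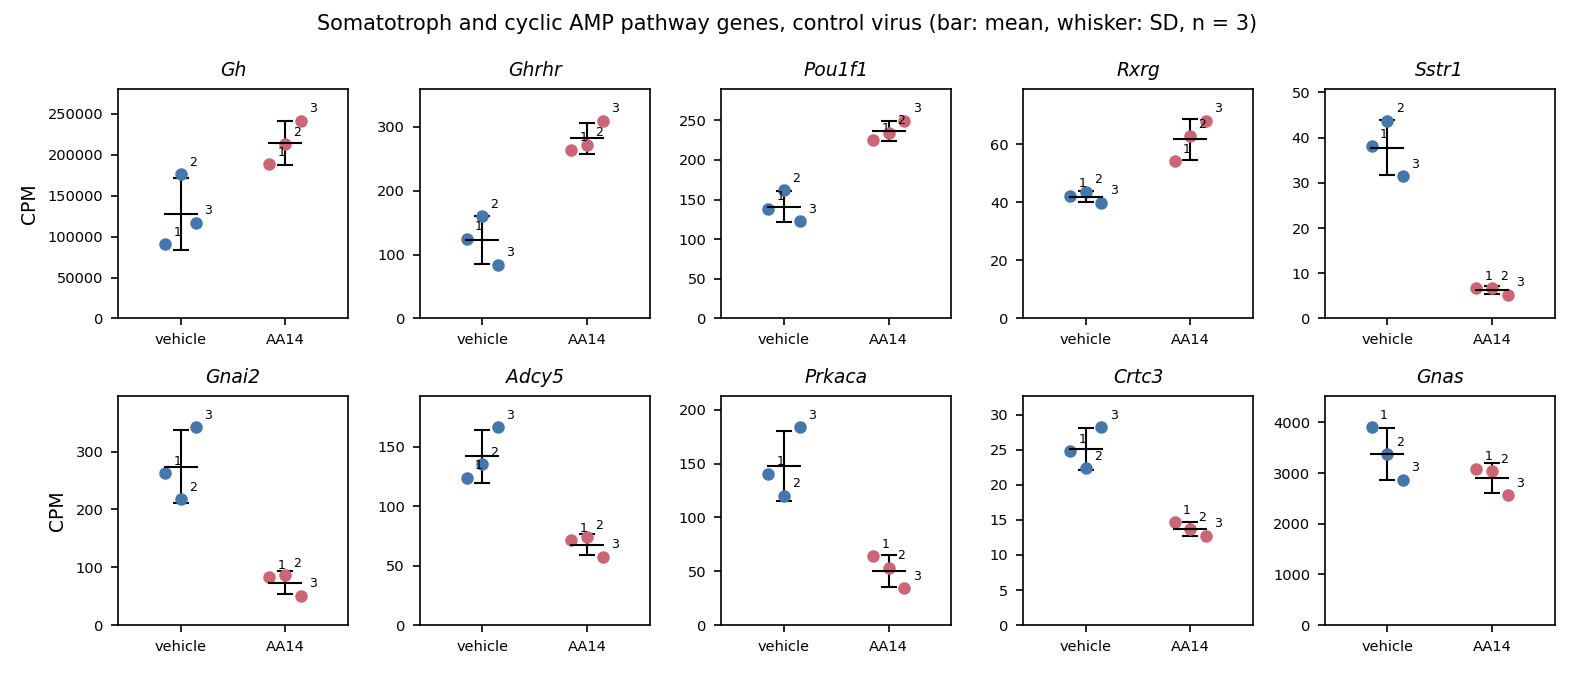
CPM of 10 somatotroph and cyclic AMP pathway genes in each control-virus library (points numbered by replicate; bar and whisker, mean and SD, n = 3). Ghrhr, Pou1f1 and Rxrg are higher in all 3 AA14 libraries, Sstr1, Gnai2, Adcy5, Prkaca and Crtc3 are lower in all 3, and Gnas overlaps.

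The Gs and cyclic AMP route is described from the receptors inward, and of its lists most members did not pass. For comparison, 50.9% of all genes tested and 56.3% of protein-coding genes had a negative fold change. Of 16 receptors coupled to Gs, Ghrhr rose and Glp1r, the receptor of glucagon-like peptide 1, fell (8.62, 5.56 and 9.40 CPM against 3.06, 2.80 and 2.41 CPM, log2 -1.50, SE 0.27, adjusted p = 0.0251). The other 14 did not pass, 13 of 16 were negative, and the median was -0.61 (-0.34 without ctrl_vehicle 3, -0.19 with the GC slope term). Of 15 receptors coupled to Gi, 12 were negative and 2 fell, both of them somatostatin receptors. The median of this list rested on ctrl_vehicle 3, at -1.58 with it and -0.23 without it, and was 0.15 with the GC slope term. Sstr1 was at 38.2, 43.8 and 31.5 CPM in ctrl_vehicle and at 6.75, 6.73 and 5.24 CPM in ctrl_AA14, a 6.06-fold lower mean (log2 -2.59, SE 0.19, adjusted p = 0.0122). Under the GC slope term it was at -1.11 over 12 libraries and at -2.75 over 6. In the cre-virus libraries it was at 9.24, 51.6 and 44.3 CPM after vehicle and 31.7, 4.84 and 43.1 CPM after AA14. Sstr4 was scarce, at 1.36, 1.44 and 2.69 CPM against 0.681, 0.458 and 0.568 CPM (-1.68, SE 0.40, adjusted p = 0.0445). The somatostatin receptors Sstr2, Sstr3 and Sstr5, the other members measured, had values of 0.17, -0.45 and 0.25 and did not pass.

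Of 22 G protein subunit genes none rose and 8 fell, 14 lay wholly below, and the median was -0.70 (-0.39 without ctrl_vehicle 3). Gnai2, an inhibitory alpha subunit, had the smallest p among them, at 262, 218 and 342 CPM against 82.6, 86.9 and 50.8 CPM (-1.89, SE 0.27, adjusted p = 0.0187). The cre-virus libraries were at 100, 272 and 262 CPM after vehicle and 322, 71.9 and 223 CPM after AA14. Subunits of other classes fell too: Gna12 (-1.59) of the G12 class, Gna11 (-1.05) and Gnaq (-0.83) of the Gq class, Gnao1 (-0.70) of the Go class, the beta subunits Gnb2 (-0.77) and Gnb1 (-0.78), and the gamma subunit Gng7 (-1.71). Gnas, which encodes the alpha subunit of Gs, overlapped, at 3900, 3372 and 2871 CPM against 3089, 3040 and 2557 CPM (-0.22, adjusted p = 0.411). The median of the 22 genes under the GC slope term was -0.07, beside -0.02 for all genes.

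Of 9 adenylyl cyclase genes tested, 1 fell, and the list median of -1.07 was 0.00 without ctrl_vehicle 3 and 0.07 with the GC slope term. Adcy5 was at 124, 135 and 166 CPM against 71.3, 73.8 and 57.6 CPM (-1.06, SE 0.16, adjusted p = 0.0193). Adcy6, another cyclase, was at 139, 177 and 133 CPM against 143, 146 and 186 CPM and did not pass. Of 18 genes for protein kinase A subunits, inhibitors and anchors, 3 fell, with a median of -0.42 (-0.19 without ctrl_vehicle 3). The catalytic subunit Prkaca was at 141, 120 and 184 CPM against 63.9, 53.3 and 34.5 CPM (-1.54, SE 0.27, adjusted p = 0.0234). The regulatory subunit Prkar2a (-0.93) and the anchor Akap13 (-0.58) followed, while the regulatory subunit Prkar1a had a value of -0.16 and did not pass. Of 16 phosphodiesterases, which degrade cyclic nucleotides, Pde1b fell (-0.64, SE 0.15, adjusted p = 0.0454). Its value under the GC slope term was -0.01, and the medians of the kinase and phosphodiesterase lists under that term were -0.0023 and -0.02.

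Of 11 genes for CREB, its coactivators and the kinases that restrain them, 3 fell. The coactivator Crtc3 was at 24.8, 22.3 and 28.2 CPM against 14.7, 13.7 and 12.7 CPM (-0.87, SE 0.15, adjusted p = 0.0233). The salt-inducible kinases Sik3 (-1.01) and Sik2 (-0.81), which hold CRTC proteins in the cytoplasm, also fell. Creb1 overlapped (-0.31). None of 22 known cyclic AMP target genes passed (21 were tested over 6 libraries), 3 lay wholly below, none wholly above, and their median was -0.16. With the GC slope term that median had the opposite sign, at 0.66. For all genes tested the shares wholly below and wholly above were 20.1% and 17.6%. The immediate-early genes Fos and Egr1, which are induced by many stimuli and by tissue handling, did not pass. Among 20 such genes 3 fell: Jund (276, 243 and 284 CPM against 102, 114 and 67.3 CPM, -1.49, adjusted p = 0.0187), Ier5 (-1.41) and Klf2 (-0.98). The median of these 20 genes was -0.36, and 0.72 with the GC slope term. Among 22 genes that end receptor signals, the regulators of G protein signalling Rgs9 (0.66), Rgs11 (1.36) and Rgs5 (0.71) rose and Rgs12 (-0.78) fell. No kinase of receptors and no arrestin passed.

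The secretory route was described from the endoplasmic reticulum (ER) to the cell surface. Differences between its 4 lists were not tested. Of 26 genes for ER chaperones and the unfolded protein response 5 rose and none fell, with a median of 0.34. Pdia4, a protein disulfide isomerase, was at 127, 174 and 139 CPM against 284, 290 and 257 CPM (0.92, SE 0.15, adjusted p = 0.0213). Herpud1, a component of ER-associated degradation, was at 81.8, 111 and 101 CPM against 171, 186 and 166 CPM (0.84, SE 0.14, adjusted p = 0.0226). The transcription factors Xbp1 (0.56), Atf4 (0.79) and Ddit3 (0.66), which act in the stress response of the ER, rose as well. Of 32 transport genes 4 rose and none fell, with a median of 0.22. Cope, a subunit of the COPI coat, was at 117, 122 and 107 CPM against 195, 199 and 176 CPM (0.73, SE 0.11, adjusted p = 0.0193). The COPI subunit Copg1 (0.66), the KDEL receptor Kdelr2 (0.79) and the signal recognition particle gene Srp54a (0.64) were the others. Srp54a had the opposite sign under the GC slope term (-0.23), and the list medians under that term were 0.07 and 0.01.

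Of 15 genes for granins and prohormone processing 6 fell and none rose, with a median of -0.36 (-0.02 with the GC slope term). Pcsk1n, an inhibitor of the prohormone convertase PCSK1, was at 1069, 909 and 1006 CPM against 400, 441 and 285 CPM (-1.40, SE 0.19, adjusted p = 0.0187). With cre virus it was at 423, 1077 and 1266 CPM after vehicle and at 1562, 346 and 849 CPM after AA14. Ptprn2, a granule membrane protein, was at 227, 211 and 222 CPM against 91.1, 106 and 83.0 CPM (-1.23, SE 0.13, adjusted p = 0.0167), and its relative Ptprn fell by 0.85 on the log2 scale. The protease Furin (52.9, 55.2 and 53.0 CPM against 24.1, 24.3 and 27.7 CPM), chromogranin A (Chga, -0.80) and carboxypeptidase E (Cpe, -0.86) fell too. Scg2, the secretogranin at 2845 to 4837 CPM, had a value of 0.36 and did not pass. Of 25 exocytosis genes 4 fell and 1 rose, with 6 wholly below and 4 wholly above, beside 20.1% and 17.6% of all genes tested. The median of the 25 genes was -0.58, but -0.02 without ctrl_vehicle 3 and 0.10 with the GC slope term. Cplx2, a complexin, was at 302, 262 and 281 CPM against 128, 139 and 109 CPM (-1.16, SE 0.13, adjusted p = 0.0174). Cadps2 (-0.61), a priming factor of dense-core vesicles, and the small GTPase Rab3d (-0.89) fell. Its relative Rab3b rose, from 83.5, 74.1 and 79.2 CPM to 137, 136 and 152 CPM (0.85, SE 0.11, adjusted p = 0.0180). Under the GC slope term over 12 libraries Chga and Cpe changed sign (0.07 and 0.04), and Rab3b and Cplx2 had values of 0.46 and -0.41. Over 6 libraries with that term Rab3b was at 0.79.

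**Figure D4:**
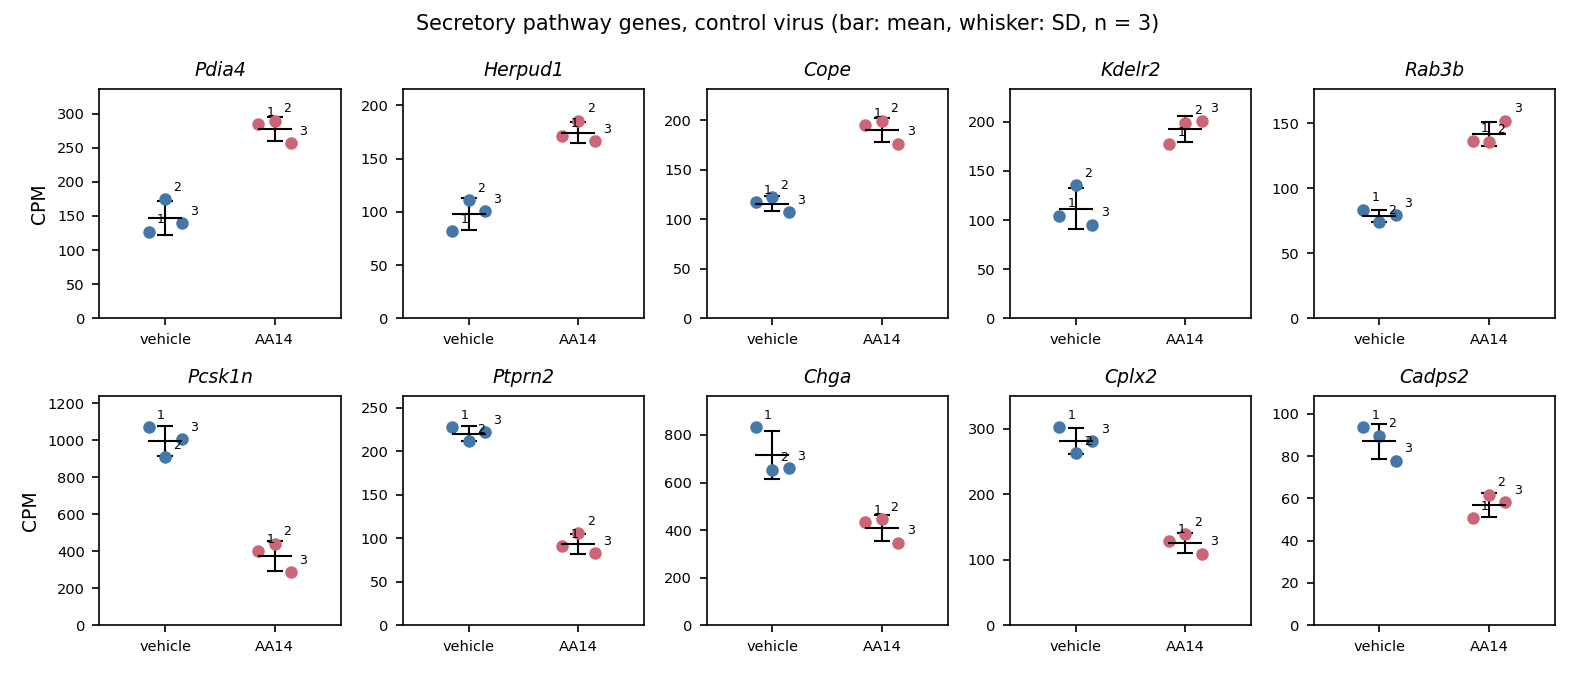
CPM of 10 secretory pathway genes in each control-virus library (points numbered by replicate; bar and whisker, mean and SD, n = 3). The upper row (Pdia4, Herpud1, Cope, Kdelr2 and Rab3b) is higher in all 3 AA14 libraries and the lower row (Pcsk1n, Ptprn2, Chga, Cplx2 and Cadps2) is lower in all 3.

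Of the 49 gene lists, that of nuclear RNAs and splicing had the most members that rose. Of 26 genes 10 rose and none fell, 21 lay wholly above and 1 wholly below, and the median was 0.79. Malat1, a long noncoding RNA kept in the nucleus, was at 328, 549 and 199 CPM in ctrl_vehicle and at 1390, 1322 and 1560 CPM in ctrl_AA14, a 3.97-fold ratio (log2 2.00, SE 0.35, adjusted p = 0.0234). Neat1, the scaffold RNA of paraspeckles, was at 71.9, 55.7 and 75.7 CPM against 135, 130 and 132 CPM (0.97, SE 0.14, adjusted p = 0.0187). The helicase Ddx5 (1.00), the splicing factors Srsf5 (0.88), Srsf7 (0.97), Srsf11 (0.76) and Srsf1 (0.63), their kinases Clk1 (1.20) and Clk4 (1.15), and the splicing coactivator Srrm2 (0.81) rose too. The median GC content of this list was 42.7%, below the 49.4% of all genes, and its median under the GC slope term was 0.08. All 13 protein genes of the mitochondrial genome were positive (median 0.39, GC 37.1%) and mt-Co2, a cytochrome oxidase subunit, rose (0.52, SE 0.13, adjusted p = 0.0484). Of 39 cytosolic ribosomal protein genes none passed, and their median was -0.04.

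By annotated class the median was 0.26 for 1138 lincRNAs, 0.30 for 1227 antisense genes and 0.62 for 930 genes to be experimentally verified (TEC), against -0.10 for 16446 protein-coding genes. Under the GC slope term these medians were -0.04, 0.01, 0.02 and -0.03. Whether reads were counted by strand is not given, so antisense genes and their partners cannot be separated.

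None of 25 collagen and matrix genes was positive. Of these 6 fell, 18 lay wholly below, and the median was -0.92 (-0.57 without ctrl_vehicle 3). Beside them, 10 of 12 markers of mural cells and fibroblasts were negative, with a median of -0.79 (-0.17 without ctrl_vehicle 3), and their part in the result was not tested. Those markers include the collagen genes Col1a1, Col1a2 and Col3a1, so these lists are not separate observations. Col4a1, a basement membrane collagen, was at 36.6, 30.0 and 45.6 CPM against 15.8, 20.6 and 19.4 CPM (edgeR adjusted p = 0.0285). The fibrillar collagen Col1a1 fell by 1.65 on the log2 scale. The median GC content of the list was 54.7%, and its median under the GC slope term was 0.01. Of 31 Notch and Wnt genes 10 fell, 24 lay wholly below and 30 were negative, with a median of -0.69. That median was -0.58 without ctrl_vehicle 3 and -0.16 with the GC slope term, and the median GC content of the list was 53.9%. Axin1, a scaffold of the beta-catenin destruction complex, was at 43.0, 38.3 and 41.8 CPM against 17.7, 17.8 and 14.2 CPM (-1.30, SE 0.14, adjusted p = 0.0167). The Wnt coreceptor Lrp5 was at 46.0, 45.5 and 46.0 CPM against 15.3, 14.8 and 9.34 CPM (-1.79, SE 0.21, adjusted p = 0.0174). The Wnt receptors Fzd1 (-1.54), Fzd8 (-1.27), Fzd5 (-0.85) and Fzd2 (-1.45) fell, as did the Notch ligand Jag2 (-0.87).

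Of 21 genes for the Arp2/3 complex, which nucleates actin branches, and its activators, 4 fell and 1 rose. The core subunit Actr3 was at 109, 114 and 125 CPM against 58.2, 56.2 and 52.1 CPM (-1.06, SE 0.11, adjusted p = 0.0167). Its value under the GC slope term was -0.67 over 12 libraries and -0.79 over 6. Arpc5 (-0.65) and the activators Wasf2 (-0.98) and Wasf1 (-1.48) also fell, and the subunit Arpc3 rose (0.42). Of 34 chromatin genes 8 fell and none rose, with 61.8% negative, near the 56.3% of protein-coding genes. The median of the 34 genes was -0.21, and -0.16 with the GC slope term. Chd4, the helicase of the NuRD complex, was at 186, 195 and 198 CPM against 116, 118 and 120 CPM (-0.70, SE 0.10, adjusted p = 0.0187). Arid1b (-0.88), Arid1a (-0.52) and Smarca4 (-1.12), subunits of the BAF remodelling complex, fell with it.

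Transcription factors of pituitary lineages did not move together. Of 19 such genes Pou1f1 rose and Six3 (-1.25), Insm1 (-1.42) and Pitx1 (-1.05) fell. Insm1, a neuroendocrine factor, was at 80.3, 62.6 and 44.3 CPM against 25.1, 24.0 and 20.6 CPM. Under the GC slope term Six3 and Insm1 were at -0.36 and -0.51. The median of the 19 genes was -0.36, and -0.21 with that term. Of 10 markers of stem and folliculostellate cells, Sox2 fell from 39.8, 31.4 and 59.1 CPM to 13.8, 13.2 and 10.2 CPM (-1.80, SE 0.27, adjusted p = 0.0187). Sox9 fell as well (-1.81), Cyp2f2 rose (0.57), and 7 did not pass. Of 23 genes of the growth hormone and IGF axis 3 fell, among them Igfbp4, an IGF binding protein, at 89.0, 79.0 and 89.1 CPM against 29.8, 18.9 and 26.8 CPM (-1.76, SE 0.19, adjusted p = 0.0167). Stat5b, a transducer of the growth hormone receptor, fell by 0.77 on the log2 scale. The median of the 23 genes was -0.37, and -0.0017 with the GC slope term.

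Markers of other cell types were measured beside these lists. Of 12 oligodendrocyte markers and 12 neuron markers none passed, and their sums varied between single libraries, with neuron markers at 596, 600 and 1804 CPM in ctrl_vehicle and 885, 636 and 563 CPM in ctrl_AA14. The Avp and Oxt sum of ctrl_AA14, given above, lay below ctrl_vehicle in each library, and Avp fell (-5.77, adjusted p = 0.0458, and -2.91 without ctrl_vehicle 3 over the remaining libraries of the study, adjusted p = 0.338). Of 9 pituicyte markers, glia of the posterior lobe, 8 were negative with a median of -0.81 (-0.17 without ctrl_vehicle 3), and Nkx2-1 fell (-1.57). Of 12 mural and fibroblast markers, Col1a1 and Col1a2 fell, Rgs5 rose, and 6 lay wholly below. The 5 erythroid genes summed to 1235, 4252 and 2306 CPM and to 4402, 6841 and 3996 CPM. The 10 lymphocyte markers, all positive, summed to 22.4, 22.9 and 15.4 CPM and to 44.6, 53.8 and 24.7 CPM. Of 12 endothelial markers Emcn (0.92) and Esam (1.02) rose while Plvap (-1.12) and Tie1 (-0.83) fell. None of 11 macrophage markers passed. The part of these cells in the results was not tested.

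**Figure D5:**
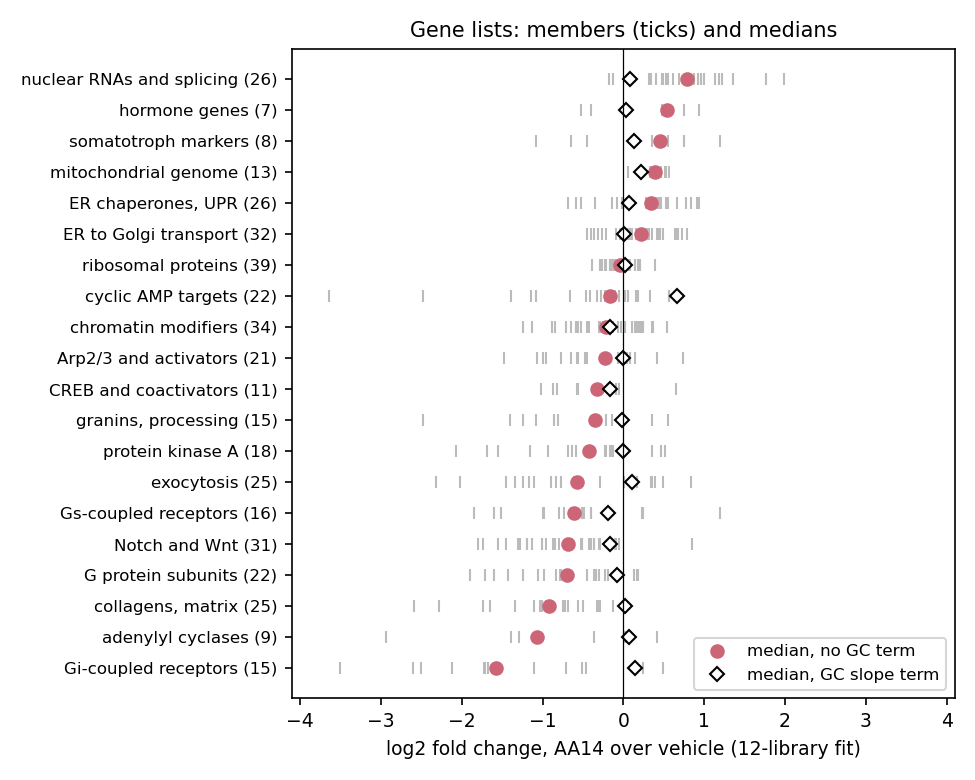
Log2 fold change of AA14 over vehicle (x axis, 12-library fit) for the members (ticks) and the medians of 20 gene lists, with the number of members in parentheses. Filled circles are medians without a GC term and open diamonds medians with the GC slope term. The circles run from 0.79 for nuclear RNAs and splicing to -1.58 for Gi-coupled receptors, and most diamonds lie nearer 0.

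Ptprd, a receptor phosphatase, was at 44.8, 41.9 and 45.1 CPM in ctrl_vehicle and 81.1, 80.2 and 69.6 CPM in ctrl_AA14 (0.81, SE 0.11, adjusted p = 0.0187), and all 6 cre-virus libraries lay between 39.3 and 57.3 CPM. Rbm20, a splicing regulator, was at 24.1, 29.8 and 15 CPM against 55.2, 53.8 and 53.3 CPM (1.24, SE 0.24, adjusted p = 0.0280), with cre-virus libraries at 23.6 to 35.3 CPM. In both genes ctrl_AA14 stood apart from all 9 other libraries, cre_vehicle 1 and cre_AA14 2 included. Krcc1 was at 62.4, 54.0 and 36.6 CPM in ctrl_vehicle and 16.3, 17.6 and 18.8 CPM in ctrl_AA14 (-1.53, SE 0.20, adjusted p = 0.0186, and 0.0592 over 12 libraries), and the cre-virus libraries, at 15.2 to 19.8 CPM, were at the AA14 level. Dab2ip, a Ras GTPase-activating protein, was at 48.8, 69.8 and 60.6 CPM against 24.8, 21.7 and 19.6 CPM (-1.43, SE 0.17, adjusted p = 0.0179). Its cre_vehicle 1 and cre_AA14 2 values, 34.5 and 35.5 CPM, lay between the groups, and the other 4 cre-virus libraries were at 46.8 to 51.3 CPM. B3gnt2, a glycosyltransferase, was at 55.9, 57.8 and 45.4 CPM against 12.1, 4.62 and 4.77 CPM (-2.88, SE 0.41, adjusted p = 0.0187). Here cre_vehicle 1 and cre_AA14 2, at 62.4 and 62.2 CPM, were the libraries at the vehicle level and the other 4 lay between 2.19 and 4.24 CPM. Apart from Gm47308, no interaction with virus passed for these genes, so a difference between the viruses is not shown.

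Some of the widest changes rested on few counts in a group. Skida1 had 12, 16 and 16 counts in ctrl_vehicle and 380, 446 and 314 in ctrl_AA14 (log2 4.70, SE 0.29, adjusted p = 0.00775), and in the cre-virus libraries it had 305, 18 and 357 counts after vehicle and 243, 279 and 261 after AA14. Cckar, the receptor for cholecystokinin, had 55, 87 and 409 counts in ctrl_vehicle and 0 in each ctrl_AA14 library. Against a floor of 3 counts over the group, or 0.0142 CPM, its level was at least 191-fold lower (adjusted p = 0.0291). Without ctrl_vehicle 3, which held 409 of the 551 vehicle counts, the bound was 74.6-fold. With cre virus Cckar had 6, 42 and 54 counts after vehicle and 25, 4 and 56 after AA14, so cre_vehicle 1 and cre_AA14 2 were the lowest. At higher levels, Bola1 (3.08, 3.64 and 4.80 CPM against 23.4, 25.1 and 20.8 CPM) and Ttn (7.56, 9.15 and 4.53 CPM against 27.8, 29.6 and 22.2 CPM) rose, and Reln, a secreted matrix protein, fell from 8.46, 21.0 and 27.5 CPM to 2.61, 2.22 and 1.94 CPM.

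Promoters of the genes that rose and fell were read from RefSeq (GRCm38.p6, 250 bases before to 50 after the start) for the motifs of the pathway. A promoter was listed for 14062 of the genes tested, for 444 that rose and for 1227 that fell. The cyclic AMP response element TGACGTCA, searched on both strands, was present in 2.81% of the promoters of tested genes, in 2.03% of those that rose and in 2.77% of those that fell. Its shorter core TGACG, which the full element contains, was present in 28.2%, 35.6% and 29.9%. The POU1F1 motif TATNCAT was present in 4.53%, 3.38% and 2.69%, and the GC box GGGCGG in 57.6%, 57.0% and 76.5%. Over all 27025 promoters of the table, the 4 shares were 1.85%, 20.9%, 9.05% and 35.9%. The last motif is made of G and C alone. The median GC content of these promoters was 59.7% for tested genes, 59.3% for those that rose and 65.3% for those that fell. The part of base composition in the motif shares was not tested. These shares are descriptions of letters, not of bound factors.

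The 250 bases before the start are shown for Pou1f1 (chr16:65520262-65520511, plus strand), Cope (chr8:70302517-70302766, plus strand) and Herpud1 (chr8:94386179-94386428, plus strand), which rose, and for Chga (chr12:102554691-102554940, plus strand) and Furin (chr7:80405437-80405686, minus strand), which fell. They were chosen after their values were seen, as genes of the somatotroph and secretory groups whose promoter holds the core TGACG. Capitals mark that core or the full element on either strand and, in Pou1f1, the motif TATNCAT:
Pou1f1: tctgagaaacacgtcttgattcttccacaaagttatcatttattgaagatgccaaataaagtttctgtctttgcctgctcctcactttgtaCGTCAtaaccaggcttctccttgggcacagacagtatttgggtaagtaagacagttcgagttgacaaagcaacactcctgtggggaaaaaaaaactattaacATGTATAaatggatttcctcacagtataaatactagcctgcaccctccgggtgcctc
Cope: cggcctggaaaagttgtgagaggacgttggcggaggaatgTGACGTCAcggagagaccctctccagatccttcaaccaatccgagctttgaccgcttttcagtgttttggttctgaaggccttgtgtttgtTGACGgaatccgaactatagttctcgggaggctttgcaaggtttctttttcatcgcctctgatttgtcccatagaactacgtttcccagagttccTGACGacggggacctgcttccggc
Herpud1: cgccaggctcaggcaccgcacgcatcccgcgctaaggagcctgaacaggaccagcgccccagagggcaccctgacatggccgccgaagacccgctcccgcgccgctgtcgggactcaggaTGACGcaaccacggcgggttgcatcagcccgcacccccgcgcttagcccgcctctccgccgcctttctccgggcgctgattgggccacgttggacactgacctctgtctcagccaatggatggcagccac
Chga: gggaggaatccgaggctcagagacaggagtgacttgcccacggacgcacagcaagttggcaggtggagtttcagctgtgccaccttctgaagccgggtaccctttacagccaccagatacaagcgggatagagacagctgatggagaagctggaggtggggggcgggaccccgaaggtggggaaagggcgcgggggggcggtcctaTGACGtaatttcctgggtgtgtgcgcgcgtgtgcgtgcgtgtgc
Furin: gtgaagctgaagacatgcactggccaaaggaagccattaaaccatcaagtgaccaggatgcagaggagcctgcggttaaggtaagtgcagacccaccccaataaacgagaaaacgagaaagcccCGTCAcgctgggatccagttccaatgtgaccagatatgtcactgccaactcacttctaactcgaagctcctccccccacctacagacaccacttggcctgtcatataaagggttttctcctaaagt
In Pou1f1 the core begins 159 bases before the start and the POU1F1 motif 57 bases before it. Cope holds the full element 210 bases before the start and further cores 119 and 24 bases before it. The core lies 130 bases before the start in Herpud1, 44 in Chga and 126 in Furin. Since these promoters were picked for holding the core, its presence in them says nothing about the direction of change.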

How the data were processed

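Pituitary RNA was sequenced as 150 bp paired reads. Each file the authors deposited holds whole-number counts of reads by gene. Reads were mapped with HISAT2 2.0.0 per the labels' protocols, and featureCounts 1.5.0-p3, DESeq 1.8.3 and GRCm38 stand in the submitters' processing notes. The annotation release, strand setting and treatment of shared reads are not stated in these sources.

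All tests used edgeR 4.0.16: filterByExpr, TMM scaling and quasi-likelihood F tests with 1 mean per group, with Benjamini-Hochberg adjustment at 0.05 over all genes tested. The design names 2 fits, over 12 libraries (22630 genes) and over the 6 control-virus libraries (21281 genes). Each SE was taken as the size of the log2 fold change over the root of F. Of 55421 gene IDs, 55154 had a symbol. Positions and GC content are from GENCODE on GRCm38 (GC known for 99.8% of genes). Median SE at 1 CPM or more was 0.26 over 12 libraries and 0.21 over 6. The steps were tested on simulated counts with known changes, drawn independently for each gene. Those counts held no trend by GC content between libraries, so that test cannot show how the fits behave under such a trend.

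The members, the gene lists and the tests were chosen with earlier results of these data known. Genes were named by rule: Gpr101 and 7 hormones, per direction the 15 of smallest p and the 10 of largest change among those called, with no overlap of the groups, any gene called over 12 libraries, and up to 5 members per list by p. Genes outside it were named after their values were seen, among them Rab11a, Foxo1, Gnas, Adcy6, Prkar1a, Creb1, Fos, Egr1, Scg2, Lrp5 and Ddx5. Alternatives were RLE and upper-quartile factors, DESeq2 1.42.0, limma-voom with quality weights (limma 3.58.1), other count filters, the replicate number as a block, each library's GC slope as a term, and each library left out. Leaving out ctrl_vehicle 3 and ctrl_AA14 1 together was added after seeing the data. Some results on single genes are not reported here.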

Additional observations from a re-analysis of the deposited data

Results flagged for a closer look

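The effect of AA14 on Gm47308 differed between the viruses by 7.04 on the log2 scale, tested as an interaction in edgeR (adjusted p = 4.36e-05 over 12 libraries), and this test is what singled it out. The gene had 2 counts in each ctrl_vehicle library and 205 to 432 counts in the other 9 libraries. Its part in the coding sequence of Rab11a, and with it the sharing of reads, is given above. Rab11a ranged from 108 to 118 CPM in ctrl_vehicle, from 76.1 to 84.3 CPM in ctrl_AA14, and from 78.2 to 107 CPM with cre virus. Whether reads were assigned in the same way in all libraries was not tested.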

How the results depend on the processing

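Over 12 libraries, 1 gene passed with edgeR, and the count was 1 under RLE or upper-quartile scaling, a minimum mean of 1 CPM, the replicate block and the GC slope term. It was 2 with no low-count filter, 2 with the replicate block and GC slope term together, 2251 with DESeq2 and 3409 with limma-voom. Leaving out a library gave 1 to 5, and leaving out ctrl_vehicle 3 and ctrl_AA14 1 together gave 3. With the 6 control-virus libraries only it was 2266. Of those 2266 genes, 1516 were among the DESeq2 calls and 2098 among the limma-voom calls over 12 libraries. The 5386 genes at an unadjusted p under 0.05 became 605 with the GC slope term and 590 with the replicate block added to it. They became 3203 to 6156 with a library left out, with 3203 without ctrl_AA14 3 and 3269 without ctrl_vehicle 3, and 2242 with both named libraries left out. In the 6-library fit the 2266 calls became 1248 with no low-count filter, 4791 with DESeq2, 3527 with limma-voom, 5 with the GC slope term and 1278 with both libraries left out. A single library left out gave 2 to 2611. The call of an interaction with virus became 26 genes with DESeq2, 0 with limma-voom, 3 with the GC slope term, 2 with the block and GC slope term, and 1 to 3 with a library left out. The cause of these differences was not tested, apart from the loss of samples in fits with a library left out.

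The labels number the libraries of each group from 1 to 3. Same-numbered control libraries had correlated deviations of -0.18, 0.05 and -0.22, so the numbers were not taken to pair them. With the replicate number as a block the 6-library count was 1, and 0 with the GC slope term added. Upper-quartile scaling moved the median of all genes from -0.02 to 0.11.

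For the 125 genes named, 2874 values under alternatives were computed over 12 libraries and 46 had the opposite sign, 13 of them among the 2624 without a GC term. None of these reversals came from RLE or upper-quartile scaling, DESeq2, a filter or the block alone. Gpr101 was at 0.82 with limma-voom, 0.68 with the GC slope term, 0.68 with the block added, -1.20 to 1.49 with a library left out (1.49 without ctrl_vehicle 3) and 1.61 with both libraries left out. With the GC slope term and then with the block added, Fshb was at -0.15 and -0.15, Foxo1 at 0.04 and 0.04, Gnas at 0.22 and 0.27, Sstr5 at -0.39 and -0.33, Adcy6 at -0.15 and -0.18, and Prkar1a at 0.14 and 0.16. Egr1 was at 0.36 and 0.18, Klf2 at 0.11 and 0.06, Rgs5 at -0.20 and -0.22, Srp54a at -0.23 and -0.24, Chga at 0.07 and 0.11, Cpe at 0.04 and 0.06, and Srsf5 at -0.06 and -0.01. With the GC slope term alone Cga was at -0.02, Prl at 0.06 and Sstr4 at 0.15. With the block added Gh was at -0.0024 and Pde1b at 0.00012. Adcy6 was at -0.04 with limma-voom and ranged from -0.05 to 0.22 with a library left out, with -0.05 without ctrl_AA14 3 and -0.00084 without ctrl_vehicle 3. With a library left out Sstr2 ranged from -0.08 (without ctrl_vehicle 2) to 0.36, Creb1 from -0.67 to 0.13 (without ctrl_AA14 3) and Egr1 from -1.64 to 1.07 (without ctrl_vehicle 1). Fos ranged from -0.36 to 2.18, with -0.20, -0.19 and -0.36 without ctrl_AA14 1, ctrl_vehicle 2 and ctrl_vehicle 3, and at -0.73 with both libraries left out. Of 49 gene lists, 42 had a median nearer 0 with the GC slope term and 20 changed sign. Others lay further from 0 with that term. Among these, the median went from -1.45 to 4.60 for oligodendrocyte markers, from -0.36 to 0.72 for immediate-early genes and from -0.16 to 0.66 for cyclic AMP targets. The median SE of 0.21 over 6 libraries and 0.26 over 12 limits what could be called, and genes with a few counts are limited by counting error.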

Other observations

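Several lists fixed for the comparison held few genes that passed and are given as values. Over all genes tested in the 6 libraries, 7.61% fell and 3.04% rose. Of 25 lysosome genes 5 fell and none rose (median -0.20). Of 22 cholesterol synthesis genes 3 fell (median -0.18), and of 15 calcium channel genes 2 fell (median -0.22). Of 32 nuclear genes for oxidative phosphorylation 4 fell and 1 rose (median -0.11), while the 13 mitochondrially encoded genes were all positive. Of 30 proteasome genes 2 rose and 1 fell (median 0.09). None of 18 interferon response genes passed, although 15 were positive (median 0.29). Markers of the other hormone cells did not pass: 6 for lactotrophs (median -0.21), 5 for thyrotrophs (0.15), 8 for gonadotrophs (0.36) and 7 for corticotrophs and melanotrophs (-0.04).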
